A study of Mus musculus with 30 samples.

Results

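Interferon-stimulated genes are the genes whose transcription cells raise when interferon reaches them. Here they are 35 named mouse genes, followed by chromatin accessibility in natural killer (NK) cells. All peaks that the deposited peak atlas assigns to one of these genes were taken, whatever their values. This gave 57 of 38526 peaks, assigned to 32 of the 35 genes, among 14886 genes in the atlas. Ifi44, Dtx3l and Oas2 had no peak of their own. The assay was ATAC-seq, where a transposase inserts adapters into open DNA, and values are normalised read counts per peak.

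The NK cells came from spleens and spent 5 days in culture with low doses of both IL-2 and IL15:IL15Ra. They were either EP2/EP4-deficient, from GzmbCre Ptger2-/- Ptger4 fl/fl mice (the KO), or wild type, from C57BL/6J mice (the WT). EP2 and EP4, encoded by Ptger2 and Ptger4, are receptors for prostaglandin E2 (PGE2), and Cre is driven by the granzyme B promoter. Only the KO carries GzmbCre, so receptor loss and Cre cannot be told apart. Cells of each genotype had PGE2 at 100 ng/ml or were untreated, for 5 h in all, and were stimulated with anti-NK1.1, an antibody to an activating NK receptor, for the last 4 h or left resting. The KO groups are PGE2 stimulated (n = 4), untreated stimulated (n = 4), PGE2 resting (n = 4) and untreated resting (n = 3). The WT groups are PGE2 stimulated (n = 4), untreated stimulated (n = 4), PGE2 resting (n = 3) and untreated resting (n = 4). Whether replicates are separate animals or cultures is not stated, so the p-values cover only the spread among these libraries, part or all of which may be technical. The sources used here give no animal age.

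Interferons act through receptors, JAK kinases and transcription factors. The response to type I and type III interferons uses IRF9 and the interferon-stimulated response element (ISRE) in promoters, while that to interferon gamma uses the GAS element. The induced genes encode transcription factors, sensors of viral nucleic acids, enzymes that attach or remove the ubiquitin-like protein ISG15, and effectors that block viral RNA, protein synthesis or particle release. NK cells respond to type I interferon and are themselves a main source of interferon gamma.

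Libraries held 8444350 to 20153816 reads in peaks. At both deleted receptor genes all KO libraries were below all WT libraries. The Ptger2 promoter peak lay between 83.6 and 247 normalised counts in the 15 KO libraries, against 560 and 1109 in the 15 WT libraries, and the Ptger4 exon peak between 56.2 and 152 in the KO, against 434 and 685 in WT. All 9 listed NK cell markers, among them Ncr1, Klrb1c and Eomes, had promoter peaks, while Cd3g, Cd4, Cd8a, Ms4a1, Lyz2 and Siglech had no peak in the atlas. Summed, the NK promoter peaks lay between 9133 and 9691 counts in untreated resting KO cells, against 10598 and 12130 in untreated resting WT cells. In untreated stimulated cells they lay between 10566.5 and 12740 in the KO and 10921 and 12725 in WT. In resting cells with PGE2 they lay between 8988 and 11326 in the KO and 9448 and 10828 in WT. The part of these differences in the results was not tested. One library, KO untreated resting replicate 2, stood apart on the fifth principal component (1.47% of the variance), at 51.7 against −14.9 to 9.16 in all others. Results that rest on it are given with and without it. On the third component (4.07%), KO replicates 1 and 2 lay between −8.16 and 4.91, and KO replicates 3 and 4 between 16.6 and 35.2. The former held 8444350 to 13740826 reads in peaks and the latter 14611688 to 20153816. What sets them apart is not stated, and untreated resting KO cells have no replicate 1. In bulk samples, fewer cells with an open site and a less open site per cell cannot be told apart.

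Of the 57 peaks, 32 (56.1%) are annotated as promoter, against 31.3% of all peaks, 12 as intergenic, 9 as intron and 4 as exon. The peaks were 409 to 2300 bp wide with a median of 1181 bp, close to the median of 1066.5 bp over all peaks. Samhd1 and Trim30a had 4 peaks each, and Mx1, Oas3, Rsad2, Trim25 and Usp18 had 3 each. Peaks of a gene share its locus and are not independent of one another. Several assignments are by proximity. The peak called Isg15 promoter is centred 2761 bp from the RefSeq start of Isg15 and lies inside Perm1, the Irf9 promoter peak also overlaps Rnf31, and the Parp9 promoter peak also overlaps Dtx3l, so that this shared promoter is counted once. The Ifit1 peak lies in Ifit1bl1 at 11778 bp from Ifit1. Peaks in the Ifit, Oas, Oasl, Mx, Gbp and Trim30 clusters sit among near-identical paralogs, and the sources used here do not give the placement of reads that match several copies.

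RefSeq promoter windows (GRCm38.p6, the mm10 build of the atlas, 250 bases before to 50 after a start site) were matched by symbol for 26 of the 35 genes, and 21 of these genes have a window inside one of their own peaks. The following 6 windows are shown because their peaks span the responses described below. Ifit3, Rsad2 and Gbp2 carry ISRE cores and lost accessibility on stimulation. Bst2 carries overlapping cores and was not called lower. Oasl2 has no core match and fell most among the promoters, and Isg20 has none and gained accessibility. Each reads 5′ to 3′ on the gene's strand, and capitals mark the ISRE core, which is GAAA, any 2 bases, GAAA, on either strand.
Ifit3 promoter window, chr19:34583279-34583578, plus strand: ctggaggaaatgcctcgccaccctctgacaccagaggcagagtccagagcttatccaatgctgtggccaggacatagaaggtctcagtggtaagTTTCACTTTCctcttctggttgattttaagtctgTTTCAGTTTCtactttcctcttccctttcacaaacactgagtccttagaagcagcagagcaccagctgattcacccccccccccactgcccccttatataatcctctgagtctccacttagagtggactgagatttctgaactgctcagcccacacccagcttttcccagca
Rsad2 promoter window, chr12:26456403-26456702, minus strand: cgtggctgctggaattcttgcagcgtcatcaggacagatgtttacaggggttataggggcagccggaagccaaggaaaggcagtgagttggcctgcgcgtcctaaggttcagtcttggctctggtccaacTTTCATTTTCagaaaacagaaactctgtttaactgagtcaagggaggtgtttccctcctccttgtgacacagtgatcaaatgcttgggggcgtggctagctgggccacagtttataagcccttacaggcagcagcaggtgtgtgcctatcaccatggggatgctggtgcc
Gbp2 promoter window, chr3:142620413-142620712, plus strand: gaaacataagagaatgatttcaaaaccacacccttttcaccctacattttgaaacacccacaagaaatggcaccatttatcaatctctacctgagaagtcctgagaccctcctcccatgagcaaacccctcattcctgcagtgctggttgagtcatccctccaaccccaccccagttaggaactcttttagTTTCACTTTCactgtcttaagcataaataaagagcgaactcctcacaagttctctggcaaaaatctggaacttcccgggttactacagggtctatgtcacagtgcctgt
Bst2 promoter window, chr8:71537423-71537722, minus strand: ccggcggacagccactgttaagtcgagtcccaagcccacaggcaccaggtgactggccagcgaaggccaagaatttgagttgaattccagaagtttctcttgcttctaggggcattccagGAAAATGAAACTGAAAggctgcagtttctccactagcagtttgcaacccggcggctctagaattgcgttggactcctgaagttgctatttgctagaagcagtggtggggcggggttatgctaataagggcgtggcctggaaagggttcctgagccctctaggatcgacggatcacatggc
Oasl2 promoter window, chr5:114896684-114896983, plus strand: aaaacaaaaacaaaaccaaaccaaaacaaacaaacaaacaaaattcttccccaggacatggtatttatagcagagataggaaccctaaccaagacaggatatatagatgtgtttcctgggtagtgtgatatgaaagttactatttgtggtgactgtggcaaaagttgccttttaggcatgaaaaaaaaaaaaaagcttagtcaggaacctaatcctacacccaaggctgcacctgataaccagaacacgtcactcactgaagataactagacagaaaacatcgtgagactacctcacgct
Isg20 promoter window, chr7:78913515-78913814, plus strand: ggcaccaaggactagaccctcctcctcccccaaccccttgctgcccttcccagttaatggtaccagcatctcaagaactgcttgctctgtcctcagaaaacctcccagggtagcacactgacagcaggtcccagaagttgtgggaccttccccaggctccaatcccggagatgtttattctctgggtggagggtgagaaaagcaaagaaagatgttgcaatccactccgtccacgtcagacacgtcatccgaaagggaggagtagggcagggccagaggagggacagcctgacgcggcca
In the Ifit3 window the cores begin 156 and 122 bases before the start site, in Rsad2 120, in Gbp2 59, and in Bst2 130 and 124 with an overlap.

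The ISRE core was present in windows of 12 of the 26 genes (46.2%), against 1079 of 27025 genes with a window (3.99%). Of the 21 member genes with a window in one of their own peaks, 9 had a core there, against 3.24% of the 10526 genes whose window overlaps a promoter peak. The GAS element, searched as TTCNNNGAA, was in 26.9% of members and 9.55% of all genes, and the AP-1 motif TGANTCA in 26.9% and 8.97%. The cAMP response element TGACGTCA was in 0 of 26 members and in 2.03% of all genes. Both strands were searched and matches may overlap one another. A match is only a run of letters, and genes without one may hold the element outside these windows. The Isg15 window, with 3 overlapping cores, and the Oas3 window, with 1, lie in no peak of the atlas, and the Ifit1 window lies in a peak assigned to Ifit1bl2.

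In untreated resting WT cells the promoter peaks differed in level per length. The highest was Ifit2, whose protein binds foreign RNA, at 688 ± 76.3 normalised counts per kb (SD, n = 4), followed by Ifit3 at 554 ± 54.9, Irf7 at 541 ± 23.5, Samhd1 at 494 ± 28.4, Oasl1 promoter 1 at 492 ± 23.2 and Irf9 at 480 ± 14 per kb. Ifit3 and Irf7 differed by less than either SD, as did Samhd1 and Oasl1 promoter 1, and Oasl1 promoter 1 and Irf9. Gbp2 and the upstream Isg20 peak (promoter 1) both averaged 114 per kb, with SDs of 8.99 and 21.7, and Oas1a was lowest at 62.8 ± 22.2 per kb. No member peak had a value of 0 in any library, and all 57 passed the filter on low values.

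**Figure D1:**
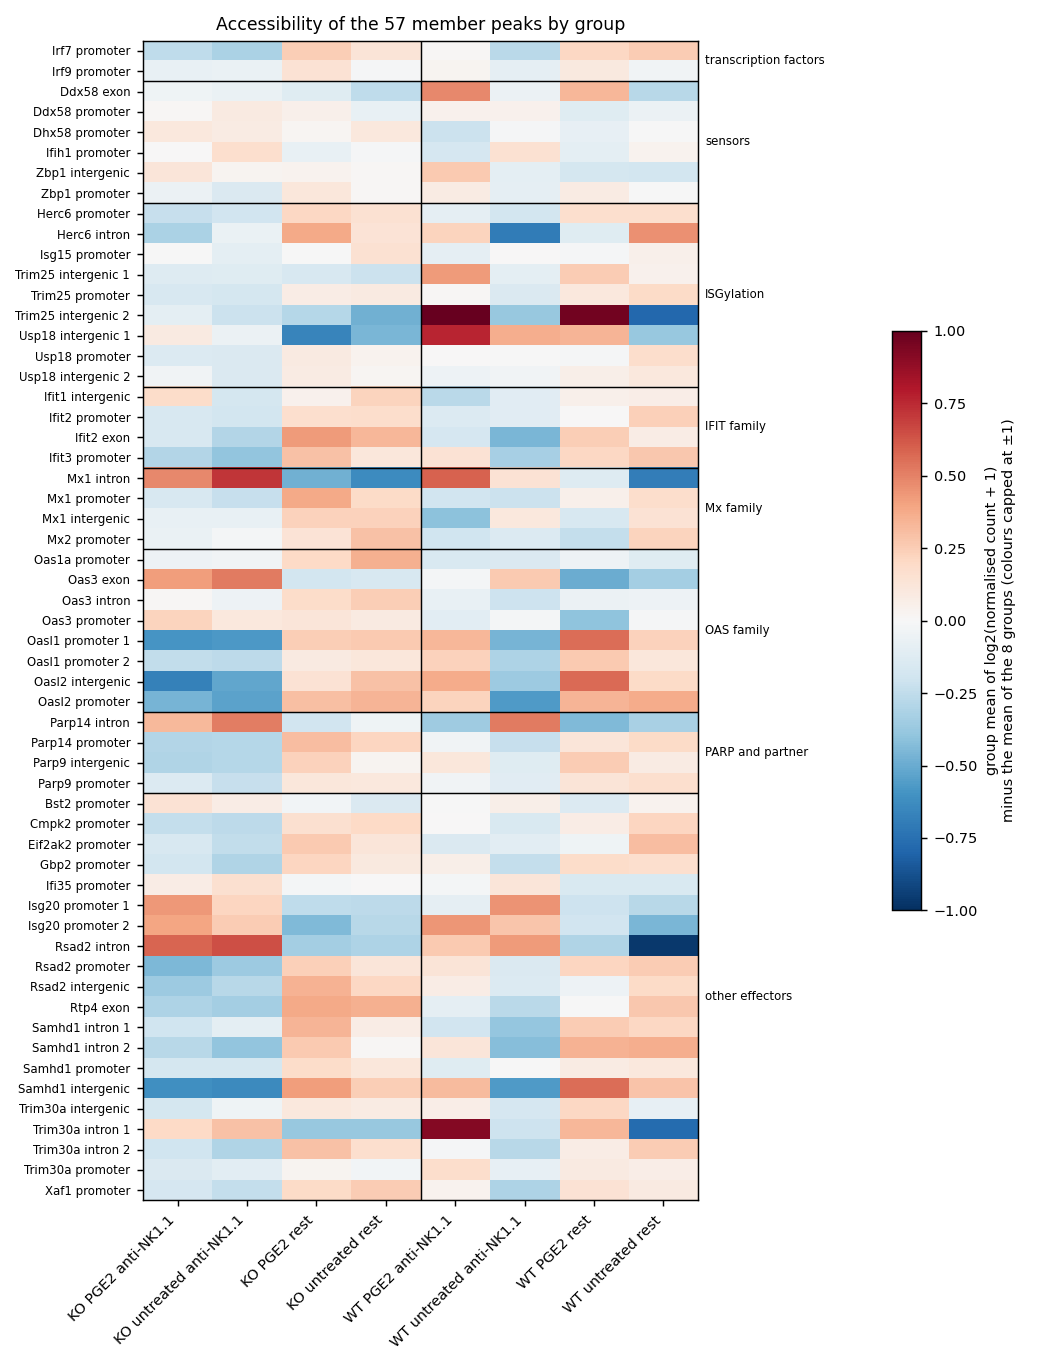
Colour shows, for each of the 57 peaks (rows, by role) and each of the 8 groups (columns, KO left of WT), the group mean of log2(normalised count + 1) minus the mean of the 8 groups, capped at ±1. Most rows are blue in the stimulated KO groups and in untreated stimulated WT, while PGE2 stimulated WT lies nearer to the resting groups.

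Stimulation with anti-NK1.1 lowered accessibility at most of these genes' promoters. Oasl2, Oasl1, Ifit3, Irf7, Rtp4, Gbp2 and Xaf1 peaks lost accessibility in KO and in WT cells, while a small set, made of the Isg20 promoter and internal or distal peaks of Rsad2, Parp14, Mx1, Oas3 and Usp18, gained it. In untreated KO cells 8 member peaks rose and 26 fell, and in untreated WT cells 9 rose and 27 fell (limma on log2(normalised count + 1), Benjamini-Hochberg adjusted p under 0.05 over 38525 tested peaks). Over all peaks, 28.1% rose and 26.4% fell in the KO (54.5% in either direction), and 28.9% rose and 27.4% fell in WT (56.3% in either direction), against 14% and 45.6% of members in the KO and 15.8% and 47.4% in WT. The median log2 difference, stimulated minus resting, was −0.29 over the members and −0.03 over all peaks in the KO, and −0.18 over the members and −0.02 over all peaks in WT. Without KO untreated resting replicate 2, which stood apart, 29 rather than 34 member peaks passed the test in the KO.

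The same comparison among promoter peaks gave the larger contrast. Of 32 member promoters, 3 (9.38%) rose and 18 (56.2%) fell in each genotype. Without KO untreated resting replicate 2, the KO calls of the Bst2 promoter and Isg20 promoter 1, which rose, and of the Trim25 and Usp18 promoters, which fell, were lost. Of the 12048 promoter peaks of the atlas, 17.9% rose and 23.2% fell in the KO (41.1% in either direction), and 19.5% rose and 21.7% fell in WT (41.2%). KO and WT share no library in these comparisons, and 23 of the 26 peaks that fell in the KO (88.5%) were among the 27 that fell in WT, of which they are 85.2%. Of the peaks that rose, 7 were shared, 87.5% of those in the KO and 77.8% of those in WT. The matching shares over all peaks were not computed, so this overlap is not shown to be particular to the members. Across the 57 peaks the log2 differences in KO and WT had a Pearson correlation of 0.893, a description only, since peaks of a locus and of a library are not independent. The interaction of genotype and stimulation was called at 0 of 57 peaks (limma, 0.00779% of all peaks, 0.00519% positive and 0.0026% negative, coded as WT minus KO, and 1452 of all peaks had an unadjusted p under 0.05), and at 0 with edgeR and DESeq2.

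**Figure D2:**
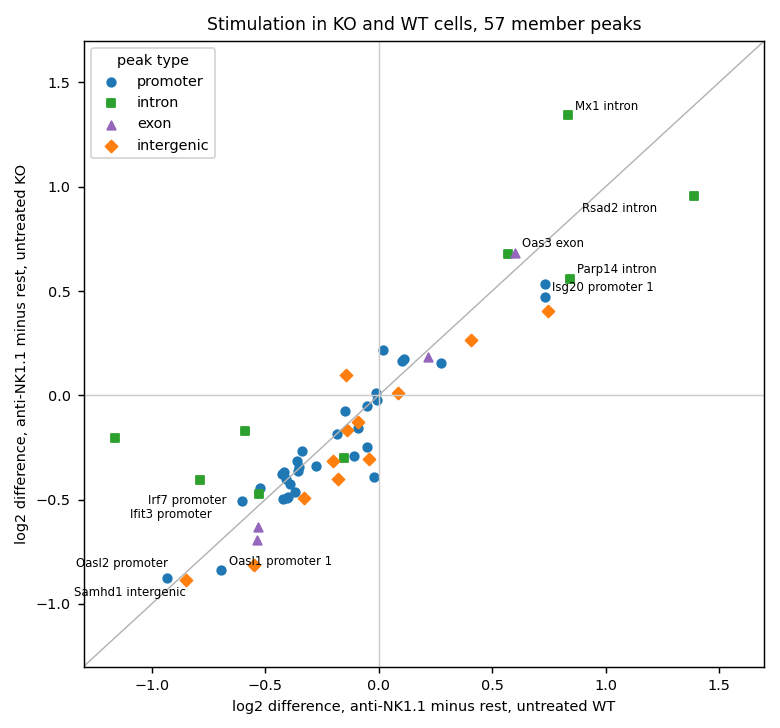
Each point is 1 of the 57 member peaks, with the log2 difference between stimulated and resting untreated cells in WT on the x axis and in the KO on the y axis, and the marker gives the peak type. Most points lie along the diagonal, from the Oasl2 promoter (−0.87 in the KO, −0.93 in WT) to the Rsad2 intron peak (0.95 in the KO, 1.39 in WT), with the Herc6 intron peak (−0.20 in the KO, −1.16 in WT) away from it. In KO cells with PGE2, not plotted, the Herc6 intron peak fell by 0.7 with stimulation (limma adjusted p = 0.0145), a call lost without PGE2 stimulated replicate 2 or PGE2 resting replicate 1.

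Of the transcription factors, Irf7, which drives interferon alpha genes, lost accessibility in untreated cells. Irf9, whose product helps recognise the ISRE, did not pass the test there. The Irf7 promoter peak (chr7:141264812-141266752) had 761, 776, 596 and 714 normalised counts in untreated stimulated KO libraries, against 968, 927 and 993 in untreated resting KO libraries. In WT it had 736, 782, 683 and 721 when stimulated, against 1102, 1072, 1023 and 1002 at rest. The groups did not overlap in either genotype, and the peak fell by 0.44 on the log2 scale in the KO (SE 0.08, limma adjusted p = 3.21e-05) and by 0.52 in WT (SE 0.08, limma adjusted p = 4.67e-07). The Irf9 promoter peak (chr14:55603615-55605127) had 817, 681, 690 and 671 counts in stimulated and 793, 687 and 739 in resting untreated KO cells. In WT it had 672, 729, 686 and 711 counts when stimulated, against 743, 698, 721 and 742 at rest, with a difference of −0.05 ± 0.07 on the log2 scale (SE, limma adjusted p = 0.562). Its stimulated and resting libraries overlap in both genotypes. In KO cells with PGE2 the Irf9 promoter fell by 0.22 with stimulation (limma adjusted p = 0.0106), a call lost without PGE2 resting replicate 2.

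None of the 6 peaks of the RNA and DNA sensors passed the test for stimulation in untreated cells of either genotype (limma). Among all tested peaks, 54.5% were called in the KO and 56.3% in WT. The Ifih1 promoter peak (chr2:62645358-62646798), at the gene of the long double-stranded RNA sensor MDA5, had 356, 326, 343 and 370 counts in stimulated against 316, 288 and 322 in resting untreated KO cells. In WT it had 342, 306, 384 and 351 when stimulated, against 322, 306, 352 and 297 at rest. The stimulated KO libraries lie just above the resting ones, and those of WT overlap.

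Among genes of the ISG15 system, promoters of Herc6, the main ISG15 ligase of mouse, and Trim25, a ligase that acts on RIG-I, fell in both genotypes. Herc6 promoter fell by 0.34 in the KO and by 0.35 in WT on the log2 scale, and Trim25 promoter by 0.27 in the KO and by 0.34 in WT. The KO call of Trim25 (limma adjusted p = 0.0224) was lost without untreated resting replicate 2, which stood apart, or stimulated replicate 3, with an adjusted p of up to 0.14. The Usp18 promoter (chr6:121244889-121246187), at the gene of the enzyme that removes ISG15 and dampens the interferon receptor, had 319, 404, 357 and 341 counts in stimulated against 403, 380 and 425 in resting untreated KO cells, and 402, 386, 379 and 395 in stimulated against 438, 438, 440 and 455 in resting untreated WT cells. Its KO groups overlap at 1 library and its WT groups do not, and the decrease of 0.18 in each genotype passed the test narrowly (limma adjusted p = 0.0456 in the KO and 0.0331 in WT). The call was lost on leaving out any of 5 libraries in the KO and any of 4 in WT. A distal Usp18 peak, 6962 bp from the gene (chr6:121238123-121238944, intergenic 1), had 104, 123, 131 and 137 counts in stimulated untreated WT cells, against 74.6, 68.0, 66.8 and 83.6 at rest, and rose by 0.75 ± 0.15 (SE, limma adjusted p = 3.57e-05). In the KO it rose by 0.40 (limma adjusted p = 0.0296), a call lost without untreated resting replicate 2 or any of 3 other libraries. Isg15, the modifier itself, showed no called change at its assigned peak (chr4:156202795-156204363), with 227, 225, 277 and 264 counts in stimulated against 326, 268 and 290 in resting untreated KO cells, and 267, 268, 254 and 269 against 294, 247, 252 and 308 in WT.

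In the Ifit family, whose proteins bind viral RNA, 3 of 4 peaks fell in each genotype and none rose. Among all tested peaks, 26.4% fell and 28.1% rose in the KO, and 27.4% fell and 28.9% rose in WT. The Ifit3 promoter (chr19:34582597-34583841), whose window carries the ISRE cores shown above, had 433, 464, 438 and 402 counts in untreated stimulated KO libraries, against 532, 640 and 692 at rest. In WT it had 460, 474, 445 and 433 when stimulated, against 711, 755, 594 and 700 at rest. Every stimulated library lies below every resting library of its genotype, and the peak fell by 0.51 in the KO (SE 0.11, limma adjusted p = 0.000154) and by 0.60 in WT (SE 0.10, limma adjusted p = 3.64e-06). The Ifit2 promoter fell by 0.36 in each genotype. The call of the small Ifit2 exon peak was lost on leaving out any of 2 libraries in the KO and any of 5 in WT.

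The 4 peaks of the Mx GTPase genes moved both ways. The Mx1 promoter (chr16:97462361-97463535) had 131, 117, 108 and 142 counts in stimulated against 156, 139 and 213 in resting untreated KO cells, and 125, 119, 116 and 142 in stimulated against 137, 175, 172 and 179 in resting untreated WT cells. The groups overlap slightly in both genotypes, and the peak fell by 0.42 in the KO (limma adjusted p = 0.0106, lost without untreated resting replicate 4) and by 0.39 in WT (limma adjusted p = 0.0103). The adjoining intron peak (chr16:97461168-97461829) had 70.7, 81.6, 101 and 114 counts in stimulated and 24.2, 42.4 and 41.8 in resting untreated KO cells, with no overlap, and rose by 1.34 ± 0.30 (SE, limma adjusted p = 0.000241). In WT it had 79.9, 40.7, 83.2 and 49.5 counts when stimulated, against 14.9, 38.9, 38.3 and 56.1 at rest. These groups overlap, and the rise of 0.83 ± 0.28 (SE, limma adjusted p = 0.0103) was lost without untreated stimulated replicate 3 or resting replicate 1, with an adjusted p of up to 0.126. C57BL/6 mice carry a defective Mx1 allele, so this locus is followed here only for its chromatin.

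Among promoters, those of the OAS family genes Oasl2 and Oasl1 had the most negative differences in both genotypes. OAS enzymes make oligoadenylates that activate RNase L, and the OAS-like proteins Oasl1 and Oasl2 are related to them. The Oasl2 promoter (chr5:114896509-114897870) had 109, 110, 129 and 161 counts in stimulated untreated KO cells, against 198, 267 and 234 at rest, and 138, 89.5, 121 and 154 in stimulated untreated WT cells, against 242, 229, 236 and 238 at rest. No stimulated library reached any resting one, and the peak fell by 0.87 in the KO (SE 0.15, limma adjusted p = 8.95e-06) and by 0.93 in WT (SE 0.14, limma adjusted p = 6.54e-07). The upstream Oasl1 peak (promoter 1, chr5:114921633-114922585), 558 bp from the gene, had 256, 253, 266 and 297 counts in stimulated against 547, 430 and 468 in resting untreated KO cells, and 270, 325, 281 and 285 in stimulated against 443, 459, 492 and 481 in resting untreated WT cells. It fell by 0.84 in the KO and by 0.69 in WT, without overlap. The family was not uniform. An exon peak of Oas3 (chr5:120753943-120754883) had 299, 293, 254 and 267 counts in stimulated untreated KO cells, against 144, 175 and 204 at rest, and rose by 0.68 in the KO and by 0.60 in WT. The Oas3 promoter peak had 405, 426, 299 and 333 counts in stimulated and 381, 360 and 339 in resting untreated KO cells, and 384, 313, 335 and 300 in stimulated and 430, 361, 319 and 253 in resting untreated WT cells, overlapping in both.

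Parp14, which encodes an ADP-ribosyltransferase, differed in direction between its promoter and an intron peak. The Parp14 promoter fell by 0.50 in the KO and by 0.42 in WT. The intron peak (chr16:35869005-35869819) had 175, 158, 193 and 179 counts in stimulated untreated KO cells, against 89.1, 134 and 141 at rest, and 161, 167, 206 and 175 in stimulated untreated WT cells, against 100, 90.4, 84.4 and 119 at rest. The groups did not overlap in either genotype. It rose by 0.56 in the KO (SE 0.19, limma adjusted p = 0.0122, and 0.152 without untreated resting replicate 2, the library that stood apart) and by 0.84 in WT (SE 0.18, limma adjusted p = 8.74e-05).

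Among the other effectors, Rsad2, which encodes the antiviral enzyme viperin, also split by position. Its promoter (chr12:26456081-26456815) had 106, 71.6, 89.6 and 123 counts in stimulated against 121, 158 and 127 in resting untreated KO cells, and 101, 92.2, 136 and 123 in stimulated against 151, 124, 168 and 150 in resting untreated WT cells. These groups overlap, and the decreases of 0.49 in the KO (limma adjusted p = 0.0181) and of 0.40 in WT (limma adjusted p = 0.0348) were lost on leaving out any of 2 libraries in the KO and any of 5 in WT. An intron peak of Rsad2, 3313 bp from the start site (chr12:26452806-26453472), had 194, 185, 249 and 211 counts in stimulated untreated KO cells, against 110, 104 and 107 at rest, and 165, 141, 215 and 203 in stimulated untreated WT cells, against 76.9, 45.7, 85.4 and 69.3 at rest. It rose by 0.95 in the KO (SE 0.18, limma adjusted p = 2.36e-05) and by 1.39 in WT (SE 0.17, limma adjusted p = 4.5e-09), without overlap.

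Samhd1, whose product destroys deoxynucleotides, had its largest decrease outside its promoter in both genotypes. An intergenic peak 2827 bp from the gene (chr2:157137923-157138738) had 57.4, 69.9, 83.8 and 68.8 counts in stimulated untreated KO cells, against 124, 142 and 122 at rest, and 69.8, 81.3, 57.1 and 88.5 in stimulated untreated WT cells, against 129, 166, 129 and 112 at rest. The stimulated libraries all lie lower, by 0.89 in the KO (SE 0.17) and by 0.85 in WT (SE 0.16) on the log2 scale. The Samhd1 promoter fell by 0.29 in the KO (limma adjusted p = 0.00382) and was not called in WT. The Samhd1 intron 1 and intron 2 peaks fell by 0.59 and 0.79 in WT and were not called in the untreated KO. In KO cells with PGE2 each fell by 0.54 with stimulation (limma adjusted p = 0.00185 and 0.0168). The intron 2 call there was lost without PGE2 stimulated replicate 4 or PGE2 resting replicate 3. The Gbp2 promoter (chr3:142619519-142621713), of a guanylate-binding protein gene, had 168, 213, 162 and 184 counts in stimulated against 213, 262 and 244 in resting untreated KO cells, which meet at 213, and 165, 201, 208 and 184 in stimulated against 276, 259, 238 and 233 in resting untreated WT cells, which do not overlap. It fell by 0.40 in the KO and by 0.41 in WT.

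Isg20, an exonuclease gene, rose at both of its promoter peaks. Its promoter 2 peak (chr7:78913507-78914357), which spans RefSeq starts, had 261, 280, 235 and 268 counts in stimulated untreated KO cells, against 205, 174 and 163 at rest, and 307, 244, 250 and 261 in stimulated untreated WT cells, against 146, 158, 138 and 197 at rest. All stimulated libraries lie above the resting ones, and the peak rose by 0.53 in the KO (SE 0.13, limma adjusted p = 0.000477) and by 0.73 in WT (SE 0.12, limma adjusted p = 1.22e-06). The upstream promoter 1 peak (chr7:78912222-78913062), 334 bp from Isg20 and 1013 bp from Aen, had 125, 136, 135 and 136 counts in stimulated against 86.1, 105 and 96.4 in resting untreated KO cells, and 140, 173, 164 and 155 in stimulated against 104, 116, 73.6 and 89.6 in resting untreated WT cells. It rose by 0.47 in the KO (limma adjusted p = 0.00863, and 0.0531 without untreated resting replicate 2) and by 0.73 in WT. The promoter of Ifi35 rose by 0.27 in WT and had a difference of 0.16 in the KO, which was not called.

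Calls with stimulation fell on peaks with and without an ISRE core. Of 10 member peaks that hold a window with a core, 5 fell and 0 rose with stimulation in untreated WT cells, the peaks being the promoters of Eif2ak2, Gbp2, Ifit3 and Rsad2 and an intron peak of Trim30a that spans a RefSeq start. In untreated KO cells 5 of the 10 fell and 1 rose, the Bst2 promoter, by 0.22 (limma adjusted p = 0.0491), a call lost on leaving out any of 5 of 7 libraries. Of 12 that hold only windows without a core, 8 fell and 2 rose in WT. Of all promoter peaks, 21.7% fell and 19.5% rose in WT, and 23.2% fell and 17.9% rose in the KO. Promoter peaks of other genes with a core were not counted separately. The promoters of Bst2, Ddx58, Ifih1, Oas1a and Trim30a hold a core and were not called in WT.

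The promoter peaks of the plasmacytoid dendritic cell list, which are those of Bst2, Ccr9, Irf8 and Tcf4, had a higher sum with stimulation. Summed, they lay between 2307 and 2700 counts in stimulated untreated KO cells, against 1452 and 1629 at rest, and between 2309 and 2659 in stimulated untreated WT cells, against 1541 and 1819 at rest. Siglech, which defines those cells, had no peak. Bst2 is itself a member, and its promoter was not called in untreated WT cells. The part of plasmacytoid dendritic cells in the result was not tested.

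With PGE2 present, stimulation of WT cells moved fewer of these peaks. Of 57 peaks, 4 rose and 1 fell in PGE2 stimulated against PGE2 resting WT cells (12.7% and 3.8% of all peaks, 16.5% in either direction), while in KO cells with PGE2 7 rose and 29 fell (27.7% and 27.1% of all peaks, 54.8% in either direction). The 4 peaks that rose in WT were the Isg20 promoter 2, the Rsad2 intron, the Oas3 exon and a distal Zbp1 peak, and the 1 that fell was an intron peak of Samhd1. The WT count was 2 without PGE2 stimulated replicate 1 or PGE2 resting replicate 3, and 3 without PGE2 stimulated replicate 2 or PGE2 resting replicate 2. Scaled by total reads in peaks, 4 rose and 0 fell. With edgeR or DESeq2 the WT count was 6, adding Usp18 intergenic 1. Groups with PGE2 share no library with the untreated groups, and 25 of the 29 peaks that fell in KO cells with PGE2 (86.2%) were among the 27 that fell in untreated WT cells (92.6% of those). The matching share over all peaks was not computed here either.

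With PGE2, stimulated WT cells had higher accessibility at part of these genes' peaks than stimulated WT cells without it. In PGE2 stimulated against untreated stimulated WT cells 19 of 57 peaks rose (33.3%) and 4 fell (7.02%), against 20.2% and 20.4% of all peaks (40.5% in either direction). Among promoters, 8 of 32 members rose (25%) and 2 fell (6.25%), while 7.1% of all promoter peaks rose and 19.9% fell (27% in either direction). The median log2 difference was 0.18 over the 57 peaks and −0.01 over all peaks. These comparisons use the same untreated stimulated WT libraries as the stimulation comparison above, so the opposite signs in both are not independent of each other.

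**Figure D3:**
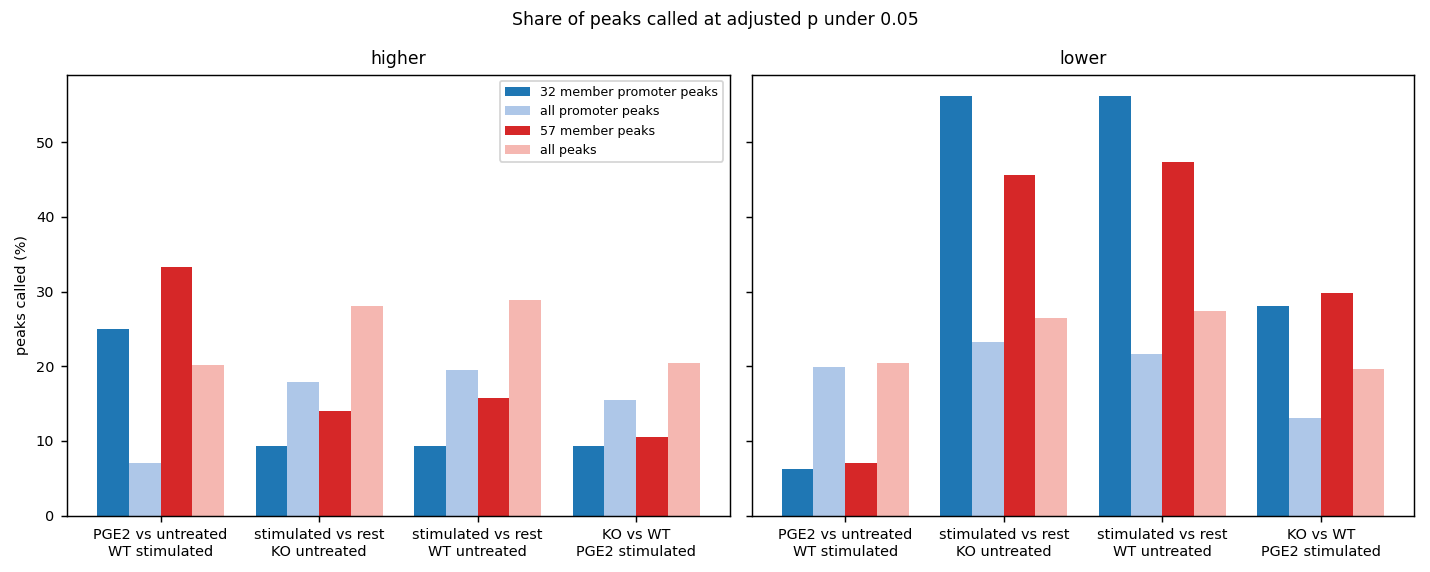
Bars give the percentage of peaks called higher (left) or lower (right) at an adjusted p under 0.05 in 4 comparisons, for the 32 member promoter peaks, all 12048 promoter peaks, the 57 member peaks and all 38525 tested peaks. Members are above the atlas among peaks that fell with stimulation and among promoters that rose with PGE2 in stimulated WT cells.

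Of the transcription factor genes, the Irf7 promoter had 881, 916, 919 and 836 counts in PGE2 stimulated WT cells, against 736, 782, 683 and 721 in untreated stimulated WT cells. All 4 PGE2 libraries lie above, with a rise of 0.28 ± 0.08 (SE, limma adjusted p = 0.00389). At Irf9 the corresponding libraries, with 791, 805, 745 and 703 counts against 672, 729, 686 and 711, overlap and the peak was not called. The Ifih1 promoter was 1 of 2 member promoters that fell: it had 239, 269, 285 and 322 counts with PGE2, against 342, 306, 384 and 351 without, overlapping at 1 library, and fell by 0.31 (SE 0.09, limma adjusted p = 0.00628). An exon peak of Ddx58, the gene of the sensor RIG-I, lies 9874 bp from the start site (chr4:40229595-40230307) and had 273, 251, 202 and 239 counts with PGE2, against 170, 152, 169 and 167 without, a rise of 0.54 ± 0.13 (SE, limma adjusted p = 0.000644).

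In the OAS family 4 of 8 peaks rose and none fell, against 20.2% and 20.4% of all peaks. The Oasl2 promoter had 229, 212, 208 and 206 counts in PGE2 stimulated WT cells, against 138, 89.5, 121 and 154 in untreated stimulated WT cells. The PGE2 libraries all lie above and near the resting level, and the rise was 0.79 ± 0.14 (SE, limma adjusted p = 2.55e-05). The Oasl1 promoter 1 peak had 477, 475, 611 and 460 counts with PGE2, against 270, 325, 281 and 285 without, and rose by 0.79 ± 0.09 (SE, limma adjusted p = 1.29e-08). An intergenic Oasl2 peak, 4412 bp from the gene (chr5:114891190-114892514), had 124, 109, 128 and 111 counts with PGE2, against 48.6, 93.5, 65.8 and 82.4 without, and rose by 0.74 ± 0.18 (SE, limma adjusted p = 0.00087). The groups did not overlap at any of these 3 peaks.

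Ifit3 showed the same order. Its promoter had 616, 647, 661 and 596 counts in PGE2 stimulated WT cells, against 460, 474, 445 and 433 in untreated stimulated WT cells, and rose by 0.47 ± 0.10 (SE, limma adjusted p = 0.000235) without overlap. The Samhd1 intergenic peak had 137, 136, 114 and 159 counts with PGE2, against 69.8, 81.3, 57.1 and 88.5 without, and rose by 0.88 ± 0.16 (SE, limma adjusted p = 1.73e-05). The promoters of Gbp2 and Xaf1, an interferon-induced partner of the apoptosis inhibitor XIAP, rose by 0.30 and 0.35, and the calls were lost without untreated stimulated replicate 1 or 4 for Gbp2 and without PGE2 stimulated replicate 4 for Xaf1.

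The largest PGE2 effects lay outside promoters. A peak 3632 bp beyond Trim25 (intergenic 2, chr11:89023926-89024724) had 376, 274, 340 and 298 counts in PGE2 stimulated WT cells, against 84.0, 108, 115 and 98.0 in untreated stimulated WT cells, and rose by 1.66 ± 0.14 (SE, limma adjusted p = 3.42e-12). An intron peak of Trim30a, a TRIM family gene of mouse (intron 1, chr7:104420486-104421076), had 67.6, 44.6, 48.9 and 43.0 counts with PGE2, against 25.3, 19.0, 22.2 and 24.3 without, and rose by 1.12 ± 0.30 (SE, limma adjusted p = 0.00292). A small intron peak of Herc6 (chr6:57641610-57642149) had 47.7, 50.2, 27.5 and 37.4 counts with PGE2, against 16.2, 25.8, 19.8 and 20.8 without, and rose by 0.93. The PGE2 and untreated libraries did not overlap at any of these 3 peaks.

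Peaks that stimulation had raised responded in no single way. The Parp14 intron peak had 87.5, 87.0, 111 and 99.1 counts in PGE2 stimulated WT cells, against 161, 167, 206 and 175 in untreated stimulated WT cells, and fell by 0.88 (SE 0.18, limma adjusted p = 0.000102). Isg20 promoter 1 had 101, 97.1, 116 and 120 counts with PGE2, against 140, 173, 164 and 155 without, and fell by 0.54 (SE 0.14, limma adjusted p = 0.00219). Neither overlapped. Isg20 promoter 2, with 339, 298, 267 and 287 counts against 307, 244, 250 and 261, was not called, and the Rsad2 intron peak, with 168, 142, 193 and 142 counts against 165, 141, 215 and 203, overlapped fully.

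**Figure D4:**
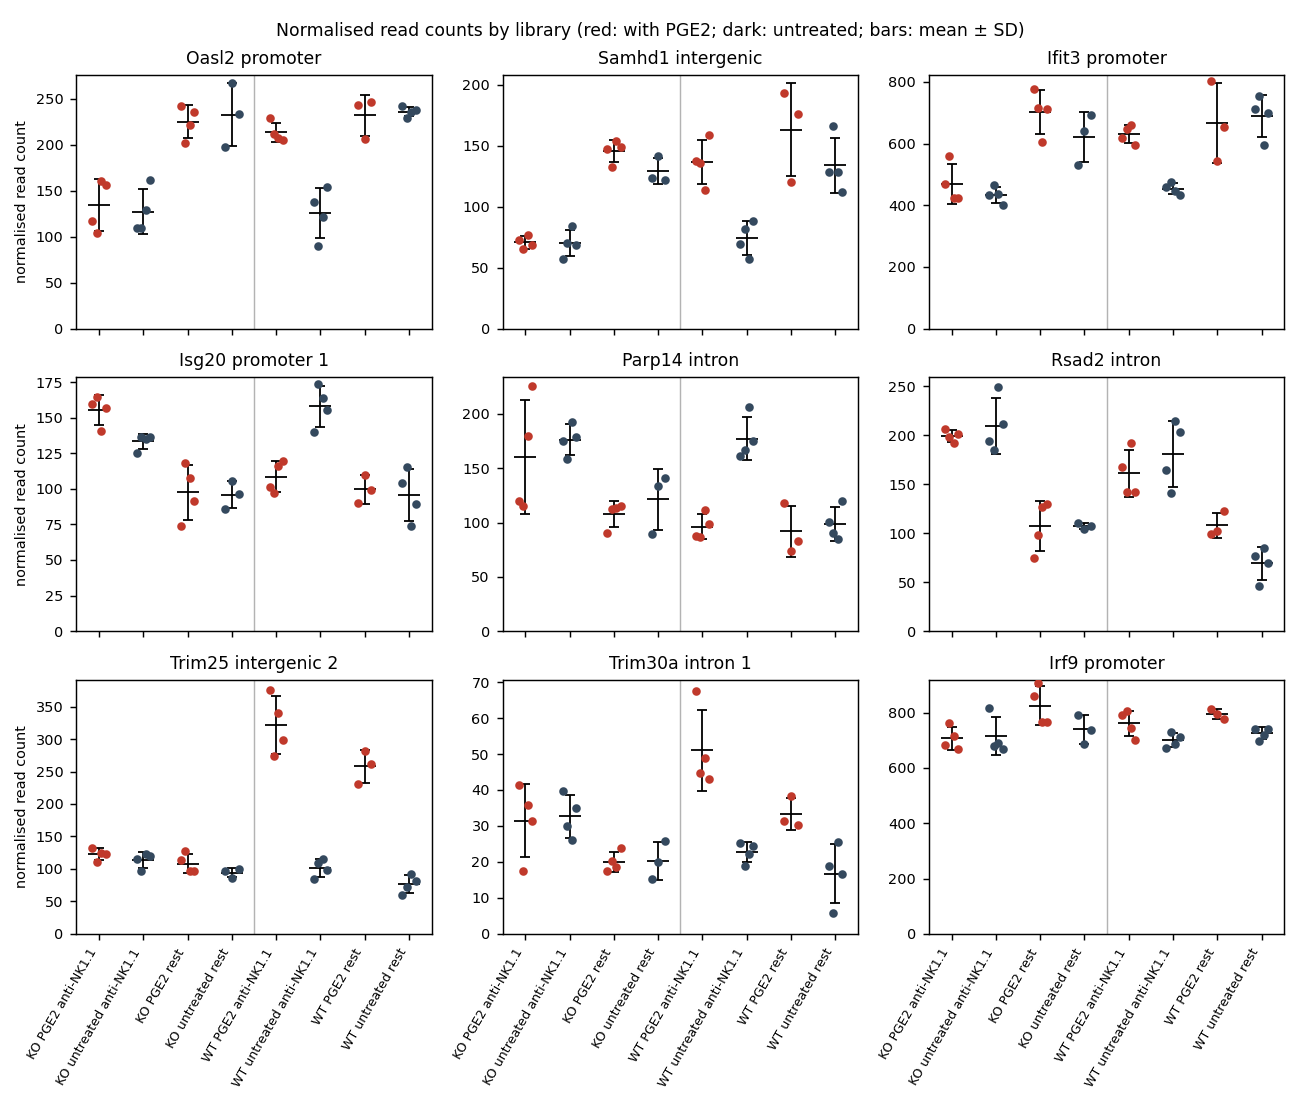
Each point is the normalised read count of 1 library, red with PGE2 and dark without, with bars for the mean ± SD, in 8 groups with KO left of WT, for 9 member peaks. At the Oasl2 promoter the PGE2 stimulated WT libraries (206 to 229) lie with the resting ones, while those of the KO (105 to 160) lie with untreated stimulated cells.

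Promoter peaks of Cd28, the only gene of the T cell list with promoter peaks, were also higher with PGE2 in stimulated WT cells. They summed to between 1078 and 1271 counts in PGE2 stimulated WT cells, against 716 and 851 in untreated stimulated WT cells. Of 12 peaks of that list 7 rose and 1 fell, against 20.2% and 20.4% of all peaks (40.5% in either direction). Cd3g, Cd4, Cd8a and Cd8b1 had no peak. The 4 promoter peaks of the myeloid list summed to between 1301 and 1517, against 1140 and 1346, and these ranges overlap. In resting WT cells they summed to between 1282 and 1437 with PGE2, against 1097 and 1199 without, and did not overlap. The part of T cells or myeloid cells in the result was not tested.

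In resting WT cells PGE2 changed member peaks at shares near those over all peaks. Most called member peaks lay outside promoters, and in the whole atlas 565 of 5740 called peaks were promoter peaks. Of 57 peaks 6 rose and 1 fell, against 10.9% and 4.03% of all peaks (14.9% in either direction). Among promoters 1 of 32 rose and 1 fell, against 2.2% and 2.49% of all promoter peaks (4.69% in either direction). The median log2 difference was −0.02, against −0.01 over all peaks. The Trim25 intergenic 2 peak had 231, 281 and 261 counts in PGE2 resting WT cells, against 60.5, 71.9, 92.3 and 81.2 in untreated resting WT cells, and rose by 1.75 ± 0.15 (SE, limma adjusted p = 2.3e-11). The distal Usp18 peak had 111, 122 and 131 counts with PGE2, against 74.6, 68.0, 66.8 and 83.6 without, and rose by 0.72 ± 0.16 (SE, limma adjusted p = 0.000894). The Ddx58 exon peak had 194, 232 and 223 counts with PGE2, against 156, 146, 136 and 128 without, and rose by 0.61. These 3 peaks do not overlap between groups and kept their calls on leaving out any library.

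The other 4 calls at rest were less firm. The Rsad2 intron peak had 99.2, 102 and 122 counts in PGE2 resting WT cells, against 76.9, 45.7, 85.4 and 69.3 in untreated resting WT cells, and rose by 0.66 (limma adjusted p = 0.00814, at most 0.066 without PGE2 replicate 4 or untreated replicate 2). Oasl1 promoter 1 had 531, 640 and 598 counts with PGE2, against 443, 459, 492 and 481 without, and rose by 0.33 (limma adjusted p = 0.0229, lost without PGE2 replicate 3 or 4 or untreated replicate 1 or 2). Trim30a intron 1 had 31.3, 38.4 and 30.1 counts with PGE2, against 18.8, 5.83, 25.5 and 16.7 without, and rose by 1.1 (lost without PGE2 replicate 3 or untreated replicate 2). The Mx2 promoter had 164, 154 and 144 counts with PGE2, against 214, 215, 234 and 189 without, and fell by 0.46 (limma adjusted p = 0.00797, and 0.05 without PGE2 replicate 4). Without PGE2 replicate 4 or untreated replicate 2 the count was 4 of 57. Scaled by total reads in peaks, 6 peaks rose and 3 fell, and with edgeR or DESeq2 6 rose and 2 fell. The promoters of Ifit3, Irf7, Gbp2, Oasl2 and Rsad2 were not called at rest.

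The PGE2 effect depended on stimulation at 10 of 57 peaks in WT cells, a smaller share than over all peaks. The share of positive calls was near that over all peaks, and the share of negative calls was below it. The interaction, coded as the PGE2 effect in stimulated minus that in resting cells, was positive at 7 peaks and negative at 3, against 10.6% and 14.7% of all peaks (25.3% in either direction). It was 0.82 ± 0.21 at the Oasl2 promoter (SE, limma adjusted p = 0.00362), 0.54 ± 0.15 at the Ifit3 promoter (SE, limma adjusted p = 0.00674) and 0.33 ± 0.12 at the Irf7 promoter (SE, limma adjusted p = 0.0341). At the Rsad2 intron it was −0.82 ± 0.24 (SE, limma adjusted p = 0.0116). The count was 6 without PGE2 stimulated replicate 2 or PGE2 resting replicate 3, and the Irf7 call was lost in both, the Ifit3 call without PGE2 resting replicate 3. The Irf7 call was lost on leaving out any of 8 of 15 libraries.

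In KO cells no member peak passed the test for PGE2. The log2 differences ran from −0.25 to 0.36 in stimulated and from −0.20 to 0.26 in resting KO cells (SEs from 0.07 to 0.33), with 0 of 57 peaks called by limma, edgeR or DESeq2 and 0 with an unadjusted p under 0.05 in either state. Over all peaks limma called 0.0026% higher and 0% lower in stimulated, and 0% higher and 0% lower in resting KO cells, while 1634 and 1520 peaks had an unadjusted p under 0.05. The Oasl2 promoter had 117, 105, 160 and 157 counts in PGE2 stimulated KO cells, against 109, 110, 129 and 161 in untreated stimulated KO cells, a difference of 0.07 ± 0.14 (SE). The Trim25 intergenic 2 peak had 132, 111, 125 and 123 counts with PGE2, against 115, 96.5, 124 and 119 without, a difference of 0.11 ± 0.14 (SE). Both pairs of groups overlap.

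**Figure D5:**
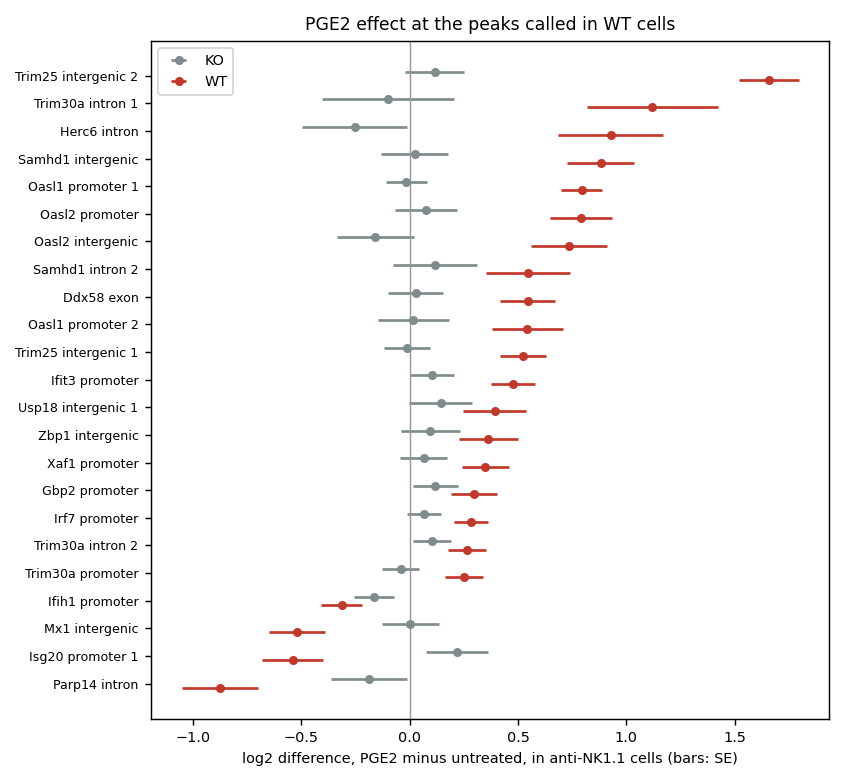
Points give the log2 difference between PGE2 and untreated stimulated cells, with SE bars, in the KO (grey, upper) and WT (red, lower) for the 23 member peaks called in WT. Selection was on the WT values. WT values run from −0.88 (Parp14 intron) to 1.66 (Trim25 intergenic 2), and KO values from −0.25 to 0.22.

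The difference between the genotypes in the PGE2 effect was tested directly. In stimulated cells the interaction, coded as WT minus KO, was positive at 9 and negative at 3 of 57 peaks, against 10.2% and 9.8% of all peaks (20% in either direction). Scaled by total reads in peaks, 10 were positive and 1 negative. It was 1.54 ± 0.19 at Trim25 intergenic 2 (SE, limma adjusted p = 2.71e-07), 0.86 ± 0.22 at the Samhd1 intergenic peak (SE, limma adjusted p = 0.00444), 0.81 ± 0.13 at Oasl1 promoter 1 (SE, limma adjusted p = 2.62e-05) and 0.72 ± 0.20 at the Oasl2 promoter (SE, limma adjusted p = 0.00966). At Isg20 promoter 1 it was −0.76 ± 0.20 (SE, limma adjusted p = 0.00561). At the Irf7 and Gbp2 promoters the interaction was not called, so the PGE2 effect there is not shown to differ between genotypes. At the Ifit3 promoter it was 0.37 ± 0.14 (SE, limma adjusted p = 0.0624), not called here but called with the replicate block, scaled by total reads in peaks, and with only the compared groups' libraries. At rest it was called, as positive, at 2 of 57 peaks (6.18% of all peaks, 4.94% positive and 1.24% negative), which were Trim25 intergenic 2 at 1.56 ± 0.21 (SE, limma adjusted p = 3.16e-06) and Usp18 intergenic 1 at 0.93 ± 0.22 (SE, limma adjusted p = 0.00641).

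Comparing KO with WT cells under the same treatment gave a further reading of the stimulated state. In PGE2 stimulated cells 6 of 57 peaks were higher in the KO and 17 lower, against 20.5% and 19.7% of all peaks (40.2% in either direction). Among promoters 3 of 32 were higher and 9 lower, against 15.5% and 13.1% of all promoter peaks (28.6% in either direction). This comparison uses the PGE2 stimulated WT libraries of the PGE2 comparison above, and all its libraries enter the genotype interaction in stimulated cells. These results are therefore not independent of each other. The comparison shares no library with that of stimulated and resting untreated WT cells. Of the 27 peaks that fell there, 11 were lower in the KO and 0 higher, and the matching share over all peaks was not computed. Oasl1 promoter 1 had 272, 285, 235 and 269 counts in PGE2 stimulated KO cells, against 477, 475, 611 and 460 in PGE2 stimulated WT cells, and fell by 0.92 (SE 0.09, limma adjusted p = 5.91e-10). Ifit3 promoter had 470, 561, 422 and 423 counts in KO, against 616, 647, 661 and 596 in WT, and fell by 0.43 (SE 0.10, limma adjusted p = 0.000689). Rsad2 promoter had 81.1, 93.5, 87.1 and 100 counts in KO, against 110, 123, 165 and 150 in WT, and fell by 0.58 (SE 0.16, limma adjusted p = 0.00399). At these 3 promoters no KO library reached a WT library.

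Isg20 promoter 1 had 159, 165, 141 and 157 counts in PGE2 stimulated KO cells, against 101, 97.1, 116 and 120 in PGE2 stimulated WT cells, and rose by 0.52 ± 0.14 (SE, limma adjusted p = 0.00336). The Irf7 promoter had 815, 813, 661 and 687 counts in KO, against 881, 916, 919 and 836 in WT, and fell by 0.26 (limma adjusted p = 0.00769, and 0.0502 without PGE2 stimulated KO replicate 3). Groups overlap at neither peak.

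In PGE2 resting cells 2 peaks were higher in the KO and 5 lower (5.46% and 8.99% of all peaks, 14.4% in either direction). The lower ones included Trim25 intergenic 2, with 113, 127, 96.3 and 96.3 counts in KO, against 231, 281 and 261 in WT, a difference of −1.25 ± 0.15 (SE, limma adjusted p = 6.27e-08), and Usp18 intergenic 1, with 52.6, 58.4, 66.3 and 63.1 counts in KO, against 111, 122 and 131 in WT, a difference of −1.0 ± 0.16 (SE, limma adjusted p = 1.15e-05). The count of 7 was 2 without WT PGE2 resting replicate 3, 3 without replicate 4 and 4 without KO PGE2 resting replicate 4. Scaled by total reads in peaks, 6 were higher and 4 lower, and with edgeR or DESeq2 4 were higher and 5 lower.

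Without PGE2, KO and WT cells were set against each other in the same way. In untreated stimulated cells 0 of 57 peaks were called (limma, edgeR and DESeq2), 5 had an unadjusted p under 0.05, and 0.379% of all peaks were higher and 0.345% lower in the KO, with 4808 at an unadjusted p under 0.05. In untreated resting cells 1 peak was called, against 1.73% of all peaks, 1.09% higher and 0.636% lower. It was the Rsad2 intron peak, which edgeR did not call, with 110, 104 and 107 counts in KO, against 76.9, 45.7, 85.4 and 69.3 in WT, a difference of 0.66 ± 0.18 (SE, limma adjusted p = 0.0469). The call was lost without KO replicate 2, which stood apart, and without each of 2 other KO and 3 WT libraries.

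Other genes of the interferon pathway were followed in 3 lists, and their counts stand beside the shares over all peaks, which were 28.1% higher and 26.4% lower for stimulation in the KO, 28.9% and 27.4% in WT, and 20.2% and 20.4% for PGE2 in stimulated WT cells. The list of interferon receptors and JAK-STAT genes held 13 genes with 75 peaks, of which 23 rose and 30 fell (30.7% and 40%) with stimulation in untreated KO cells and 24 rose and 34 fell (32% and 45.3%) in untreated WT cells. With PGE2 in stimulated WT cells 29 rose and 12 fell (38.7% and 16%), and in resting WT cells 15 rose and 3 fell (20% and 4%, against 10.9% and 4.03% of all peaks). An exon peak of Socs1, the inhibitor of JAK signalling, averaged 741 ± 103 counts in stimulated untreated KO cells, against 200 ± 41.4 at rest, and 721 ± 22.8 in stimulated untreated WT cells, against 191 ± 15.9 at rest (SD), a log2 difference of 1.89 in the KO and of 1.91 in WT. An exon peak of Tyk2, a kinase of the type I interferon receptor, averaged 288 ± 14.5 counts in PGE2 stimulated WT cells, against 750 ± 33.5 in untreated stimulated WT cells (SD, n = 4 each), and fell by 1.38 (SE 0.09). An intergenic peak of Ifngr1, a chain of the interferon gamma receptor, averaged 1806 ± 181 counts with PGE2, against 837 ± 28.2 without (SD, n = 4 each), and rose by 1.1.

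For nucleic acid sensing upstream of interferon, 11 of 13 listed genes had 21 peaks. Of these 6 rose and 6 fell (28.6% each) with stimulation in untreated KO cells, 5 rose and 5 fell (23.8% each) in untreated WT cells, and 5 rose and 5 fell (23.8% each) with PGE2 in stimulated WT cells, all near the shares over all peaks. A peak assigned to Ifnb1, the interferon beta gene, averaged 137 ± 2.41 counts in PGE2 stimulated WT cells, against 60.8 ± 13.0 in untreated stimulated WT cells (SD, n = 4 each), and rose by 1.18 ± 0.16 (SE). For other interferon-induced genes, 38 of 45 listed had 99 peaks, of which 23 rose and 32 fell (23.2% and 32.3%) with stimulation in untreated KO cells, 27 rose and 42 fell (27.3% and 42.4%) in untreated WT cells, and 27 rose and 13 fell (27.3% and 13.1%) with PGE2 in stimulated WT cells. The promoter of Ifi204, a DNA sensor of the HIN-200 family, averaged 764 ± 51.8 counts in PGE2 stimulated WT cells, against 375 ± 37.8 in untreated stimulated WT cells (SD, n = 4 each), and rose by 1.03 ± 0.08 (SE, limma adjusted p = 2.12e-12).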

How the data were processed

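ATAC-seq libraries of mouse splenic NK cells were used: 30 libraries in 8 groups of 3 or 4. Per the submitters' processing notes, the tools included Trimmomatic 0.39, Bowtie2 2.4.1, MACS2 2.2.7.1 and DESeq2, with the mm10 build. The authors deposited a signal table of read counts per atlas peak, normalised by size factors, with a gene and a peak type for each peak. Every value was a whole number of reads within 0.05 reads once divided by the value of 1 read, which lay between 0.663 and 1.66 (100% of values in each library), so read depth was recovered as 8444350 to 20153816 reads in peaks. Reads are not independent molecules.

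The test was limma 3.58.1 in R 4.3.3, two-sided, on log2(normalised count + 1), with 1 mean per group over all 30 libraries and a mean-variance trend. Peaks with a mean of 10 or more were tested, which removed 1 peak, and p-values were adjusted by Benjamini and Hochberg over all 38525 peaks in each comparison. Called means an adjusted p under 0.05. Differences are stimulated minus resting, PGE2 minus untreated and KO minus WT, and genotype interactions are WT minus KO. Fold changes on this scale understate changes of low peaks.

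Alternatives were pseudocounts of 0.5 and 5, no filter, a mean of 50 or more, scaling by total reads in peaks, edgeR 4.0.16 (TMM) and DESeq2 1.42.0 on the recovered reads, a replicate block, only the libraries of the groups compared, and each library left out in turn. Replicate numbers were taken to pair samples where every pair's deviations correlated above 0.1, which held in 5 of 12 comparisons. The members and the gene lists were chosen with earlier results of these data known. Peaks with values per library were, in each comparison, up to 6 called member peaks per direction with the largest differences, a higher-group mean of 50 or more and libraries that do not overlap between groups, and the promoter peaks of Isg15, Ifit3, Mx1, Oas3, Rsad2, Irf7, Irf9, Usp18, Ifih1, Gbp2 and Isg20 (Ifit1, also listed, has no promoter peak in the atlas). Any other peak given by name was chosen after its values were seen. The script was checked on simulated data. Promoter windows are from RefSeq (GRCm38.p6). Conditioned medium, which the series' design text also names, was not analysed here.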

Additional observations from a re-analysis of the deposited data

Results flagged for a closer look

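In 9 of 210 groups of 4 libraries, 1 library stood far from the other 3 by Dixon's criterion, and chance gives about 1 in 20. Among KO libraries these were PGE2 stimulated replicate 2 at the Ifit2 exon peak, with 52.28 normalised counts, untreated stimulated replicate 1 at the Irf9 promoter, with 817.1, and at Isg20 promoter 1, with 125.1, and untreated stimulated replicate 4 at Trim25 intergenic 1, with 316.4. In PGE2 resting KO cells they were replicate 3 at the Oas3 exon peak, with 151.2, and replicate 1 at the Parp14 intron peak, with 90.03. Among WT libraries they were PGE2 stimulated replicate 3 at Oasl1 promoter 1, with 611.4, untreated stimulated replicate 3 at the Isg15 promoter, with 254.4, and untreated resting replicate 4 at the Usp18 promoter, with 455.

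The PGE2 effect differed between the genotypes, by the limma interaction coded as WT minus KO on the log2 scale, at 2 peaks in resting cells, Trim25 intergenic 2 (1.56) and Usp18 intergenic 1 (0.928). In stimulated cells it was positive at Trim25 intergenic 2 (1.54), Trim30a intron 1 (1.22), the Herc6 intron (1.18), Oasl2 intergenic (0.894), Samhd1 intergenic (0.858), Oasl1 promoter 1 (0.809), the Oasl2 promoter (0.715), Trim25 intergenic 1 (0.537) and the Ddx58 exon (0.518). It was negative at Isg20 promoter 1 (−0.758), the Parp14 intron (−0.686) and Mx1 intergenic (−0.524). Of these 12, the Trim30a, Ddx58, Parp14 and Mx1 calls were lost on leaving out any of 7 to 10 of 16 libraries.

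Within WT cells the PGE2 effect in stimulated minus that in resting cells was positive at the Herc6 intron (1.51), the Oasl2 promoter (0.818), Samhd1 intergenic (0.61), the Ifit3 promoter (0.538), Oasl1 promoter 1 (0.466), Trim30a intron 2 (0.438) and the Irf7 promoter (0.327). It was negative at the Rsad2 intron (−0.821), the Parp14 intron (−0.756) and Isg20 promoter 1 (−0.609). Leaving out any of 5 to 9 of 15 libraries ended the Samhd1, Irf7, Parp14 and Isg20 calls. The Oasl1 and Ifit3 calls were each lost without 1 library.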

How the results depend on the processing

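Over 16 comparisons 196 member values were called, and none of the 155 named called values reversed under any of 39 alternatives. Calls lost and gained were 0 and 0 with a pseudocount of 0.5 and with no filter, 1 and 2 with a pseudocount of 5, 12 and 0 with a mean of 50 or more (fewer peaks tested), 10 and 11 scaled by total reads in peaks, 5 and 7 with edgeR, 1 and 8 with DESeq2, 1 and 10 with the replicate block, and 17 and 10 with only the compared groups' libraries. In untreated resting cells KO against WT had 0 calls with a pseudocount of 5, a mean of 50 or more, edgeR or only the compared libraries, against 1. Stimulated against resting WT cells with PGE2 had 10 calls with the replicate block, against 5, adding the Herc6, Irf7 and Samhd1 promoters, the Mx1 intron and Usp18 intergenic 1. The cause was not tested.

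Leaving out 1 library at a time, called peaks numbered 29 to 32 (34 with all) for stimulation in untreated KO cells, 31 to 34 (36) in untreated WT cells, 33 to 38 (36) in KO cells with PGE2 and 2 to 5 (5) in WT cells with PGE2. For PGE2 they numbered 20 to 23 (23) in stimulated WT, 4 to 9 (7) in resting WT and 0 to 0 in KO cells. For KO against WT they numbered 17 to 24 (23) in PGE2 stimulated, 2 to 9 (7) in PGE2 resting, 0 to 0 in untreated stimulated and 0 to 1 (1) in untreated resting cells. For interactions they numbered 8 to 12 (12) and 2 to 2 (2) for PGE2 by genotype in stimulated and resting cells, and 6 to 10 (10) for PGE2 by stimulation in WT and 0 to 0 for stimulation by genotype. Leaving out a library, named called values kept their call 1185 times and lost it 191 times. In the 5 comparisons where replicate numbers pair the libraries, the replicate block changed no call. Where they share only a number, it gave 33 calls for stimulation in untreated KO cells, against 34, with the Usp18 promoter lost (limma adjusted p = 0.0607).

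Depth limits small peaks most, such as the Herc6 intron and Trim30a intron 1 peaks, with under 70 counts in every library.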
